A study of Homo sapiens with 8 samples.

Results

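The genes described here encode the subunits of the oxidative phosphorylation complexes that are made from nuclear genes. Members were found by symbol. NDUFA, NDUFB, NDUFC, NDUFS or NDUFV followed by a number gave complex I, SDHA to SDHD gave complex II, and a fixed set of 8 UQCR symbols gave complex III. Symbols beginning with COX4 to COX8 gave complex IV, and those beginning with ATP5F1, ATP5M or ATP5P gave complex V, the ATP synthase. Symbols with a hyphen or ending in P and digits, the usual form for pseudogenes, were dropped. Complexes are assigned by symbol alone, so NDUFA4, now placed in complex IV, is counted with complex I throughout. Subunits with other symbols, such as CYC1 (cytochrome c1) of complex III, are not members. The rule used no measured value and found 84 of the 61125 genes in the deposited tables, of which 37 belong to complex I, 4 to complex II, 8 to complex III, 17 to complex IV and 18 to complex V. A filter on low counts left 78 of the 84 members for testing.

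U-937, a leukemia line of human origin labelled pro-monocytic, was treated for 72 h before RNA sequencing. One group received 250 µM L-ascorbic acid (LAA, vitamin C) together with 1 µM all-trans retinoic acid (ATRA, a vitamin A derivative that drives differentiation of myeloid leukemia cells). Another group received 1 µM ATRA alone, another 250 µM LAA alone, and the control group the PBS and DMSO used as vehicle. Each group had 2 libraries of poly-A RNA, 8 in all, and all came from this line alone. The design addresses the response to either compound, the response when the other is present, and the departure of the combination from the sum of the single responses.

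Oxidative phosphorylation passes electrons from NADH through complex I, and from succinate through complex II, to ubiquinone, then through complex III and cytochrome c to complex IV, where oxygen is reduced to water. Complexes I, III and IV pump protons across the mitochondrial inner membrane, and complex V uses the proton gradient to make ATP. Most subunits are encoded in the nucleus and imported, while a small number of core subunits of complexes I, III, IV and V are encoded in mitochondrial DNA, and myeloid leukemia cells are known to rely on this pathway.

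Library totals ran from 18462552 to 24166770 estimated counts. The members took 1.18% to 1.25% of the counts in LAA+ATRA libraries, 1.03% to 1.15% with ATRA, 1.39% to 1.43% with LAA and 1.22% to 1.24% with vehicle. All 9 markers listed for the pro-monocytic line passed the filter, although MPO, a granule peroxidase, was near 0, between 0.158 and 0.839 CPM. Their summed level was 10663 to 11574 CPM with LAA+ATRA, 9222 to 9852 with ATRA, 4490 to 4615 with LAA and 3974 to 4220 with vehicle. Of 18 markers of T, B, erythroid, epithelial, fibroblast and endothelial cells, 9 had no counts in any library, the T cell markers CD3D, CD3E and CD8A among them, and the 18 summed to 103 to 113, 115 to 120, 69.2 to 74.7 and 73.8 to 75.8 CPM in the same order of groups. Their part in the results below was not tested.

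Levels are compared between genes only per length, in FPKM (fragments per kilobase of gene length, scaled to library depth), as the authors deposited it. NDUFS1 and COX5A, which mark the set, were expressed in every library, with mean levels of 27.3 and 862 FPKM over the 8 libraries. The 37 complex I genes ran from 26.7 FPKM for NDUFV3, an accessory subunit beside the NADH-binding site, to 910 FPKM for NDUFS5, with a median of 178 FPKM. The 4 complex II genes lay closer together, from 81.6 FPKM for SDHA, the flavoprotein that oxidises succinate, to 164 FPKM for SDHB, the iron-sulfur subunit. Complex III ran from 77.1 FPKM for UQCRFS1, the Rieske iron-sulfur protein, to 988 FPKM for UQCRH, the hinge protein that contacts cytochrome c1. Tested complex IV genes had a median of 591 FPKM and complex V genes one of 422 FPKM, and ATP5MF, the f subunit of ATP synthase, had the highest level of any member, 1758 FPKM. That value divides by a gene length of 125 bases, the effective length behind the FPKM. The lowest complex V level, 50 FPKM for ATP5F1E, divides by 3118 bases, so both ends of the range carry the uncertainty of that length.

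**Figure D1:**
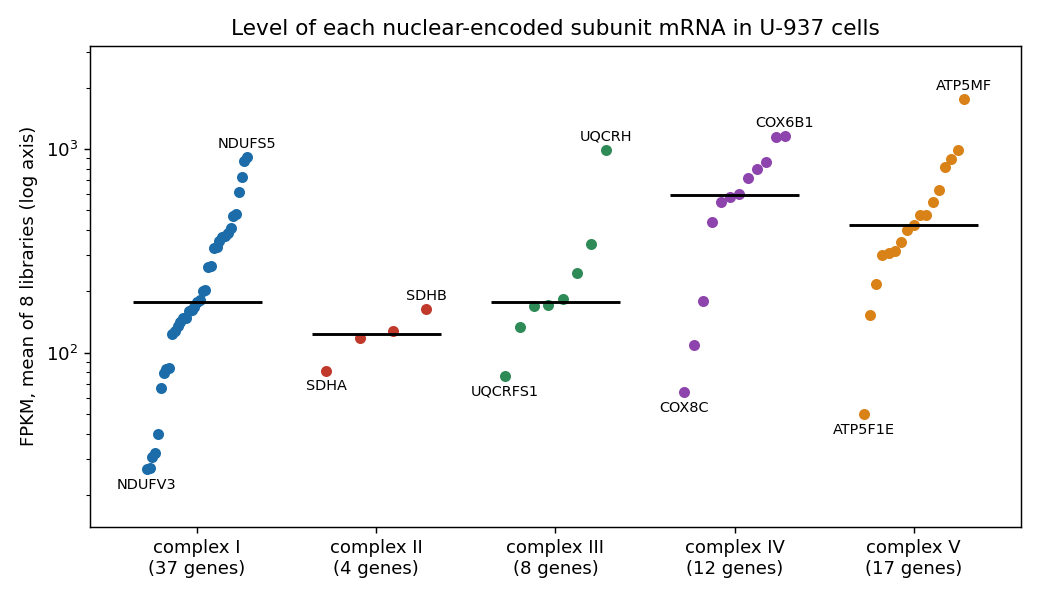
Mean level of each of the 78 tested members over the 8 libraries, in FPKM on a log axis, sorted within each complex, with the median of the complex as a black line. Complex IV and complex V genes have the highest medians, 591 and 422 FPKM, and the lowest and highest member of each complex is named.

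Isoform pairs of complex IV separated clearly. COX4I1, the common form of the regulatory subunit IV, had 796 FPKM, against 0.484 FPKM for COX4I2, the form known from lung, and COX6B1 had 1152 FPKM, against 0.126 FPKM for COX6B2, the testis form. COX4I2 and COX6B2 did not pass the filter, and their highest library values were 0.347 and 0.332 CPM. The muscle forms COX6A2 and COX7A1, the testis form COX7B2 and ATP5MGL, a copy of the ATP synthase g subunit gene, had no counts in any library, and their partners COX6A1, COX7A2 and COX7B had 601, 439 and 180 FPKM. COX8C, known mainly from testis, was the exception, with 13.5 to 19.7 CPM over all 8 libraries and a mean of 63.8 FPKM, against 1147 FPKM for its common partner COX8A. The 3 genes for the c ring of ATP synthase, which encode the same mature protein, had 310 FPKM (ATP5MC1), 888 FPKM (ATP5MC2) and 630 FPKM (ATP5MC3).

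Many nuclear OXPHOS genes are known to be driven by NRF1, by the ETS-family factor GABPA (NRF2) and by YY1, so their promoters were searched for those letters. RefSeq promoters of build GRCh38.p14, from 250 bases before to 50 after the start, 300 bases in all, were found for 68 of the 84 members. Both strands were searched for the NRF1 palindrome, the run of 10 capitals found 4 times in the SDHA promoter below with any base at its sixth place, for CCGGAAG (ETS) and for AAGATGGCG (YY1). Matches may overlap. At least 1 of these was present for 40 of 68 members (58.8%), against 19% of the 27305 genes with a promoter. Of the 68 members 65 passed the filter on low counts, while those 27305 genes were not limited to genes that passed it. Whether the contrast is particular to these members was not tested. NRF1 letters were found for 17 members (25%), against 6.98% of all genes, ETS letters for 21 (30.9%), against 12.2%, and YY1 letters for 9 (13.2%), against 2.14%. The 4 promoters below are examples from members called with ATRA, SDHA and SDHB lower and UQCR11 and COX8A higher. They carry different matches, printed in capitals, 5′ to 3′ in the direction of the gene. The ATRA calls of SDHA, UQCR11 and COX8A were lost in 3, 4 and 3 of 18 alternative analyses. By ATRA call, NRF1 letters were found for 3 of 15 members called higher, 1 of 11 lower and 13 of 39 not called. For ETS letters these counts were 7, 4 and 10, and for YY1 letters 0, 2 and 7. A relation of the motifs to the ATRA response was not tested. SDHA (chr5:218070-218369, plus strand) has 4 NRF1 matches, and SDHB (chr1:17053983-17054282, minus strand) has 1 ETS and 1 YY1 match. UQCR11 (chr19:1605413-1605712, minus strand) has 2 NRF1 and 2 ETS matches, and COX8A (chr11:63974370-63974669, plus strand) has 1 ETS match.
SDHA: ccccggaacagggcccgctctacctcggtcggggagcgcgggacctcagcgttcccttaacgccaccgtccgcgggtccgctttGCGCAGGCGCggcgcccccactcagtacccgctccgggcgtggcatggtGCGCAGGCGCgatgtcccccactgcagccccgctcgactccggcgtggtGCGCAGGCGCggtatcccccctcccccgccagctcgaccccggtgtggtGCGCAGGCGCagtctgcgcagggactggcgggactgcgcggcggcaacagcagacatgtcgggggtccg
SDHB: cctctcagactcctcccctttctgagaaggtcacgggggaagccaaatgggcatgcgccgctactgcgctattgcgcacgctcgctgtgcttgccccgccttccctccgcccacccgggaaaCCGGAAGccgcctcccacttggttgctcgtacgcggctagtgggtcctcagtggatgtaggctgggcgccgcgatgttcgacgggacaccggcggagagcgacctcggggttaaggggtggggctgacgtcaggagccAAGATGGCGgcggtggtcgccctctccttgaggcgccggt
UQCR11: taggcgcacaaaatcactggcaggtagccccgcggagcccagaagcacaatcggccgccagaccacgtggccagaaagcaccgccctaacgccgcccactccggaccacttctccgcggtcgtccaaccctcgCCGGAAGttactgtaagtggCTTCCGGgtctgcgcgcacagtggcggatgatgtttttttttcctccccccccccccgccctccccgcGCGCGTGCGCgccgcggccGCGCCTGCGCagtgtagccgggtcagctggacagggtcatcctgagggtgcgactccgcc
COX8A: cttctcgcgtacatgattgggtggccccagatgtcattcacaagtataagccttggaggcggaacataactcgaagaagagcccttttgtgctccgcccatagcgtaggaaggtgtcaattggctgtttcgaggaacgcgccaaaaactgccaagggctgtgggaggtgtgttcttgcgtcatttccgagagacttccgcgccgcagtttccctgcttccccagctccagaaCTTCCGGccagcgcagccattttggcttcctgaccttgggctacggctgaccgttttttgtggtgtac

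ATRA changed the members in both directions. At an adjusted p under 0.05 (edgeR's quasi-likelihood F test, adjusted over all 14995 genes tested), 16 members rose and 14 fell in ATRA libraries against vehicle, and 48 were not called. Over all genes tested, 21.9% were called higher and 21.0% lower, so the members' shares, 16 and 14 of 78, lie near those of genes at large. At an unadjusted p under 0.05 there were 35, against 50.1% of all genes. Their median log2 fold change was -0.03, against -0.00 over all genes. By role, none of the 7 nuclear core subunits of complex I rose and 2 fell. Of its 30 accessory members by symbol, NDUFA4 included, 11 rose and 3 fell. In the F1 head and central stalk of ATP synthase 1 of 5 rose and 3 fell. The grouping by role was made with results of these data known, so these counts describe it and carry no test. In bulk RNA, fewer cells of a type and less RNA per cell cannot be told apart.

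**Figure D2:**
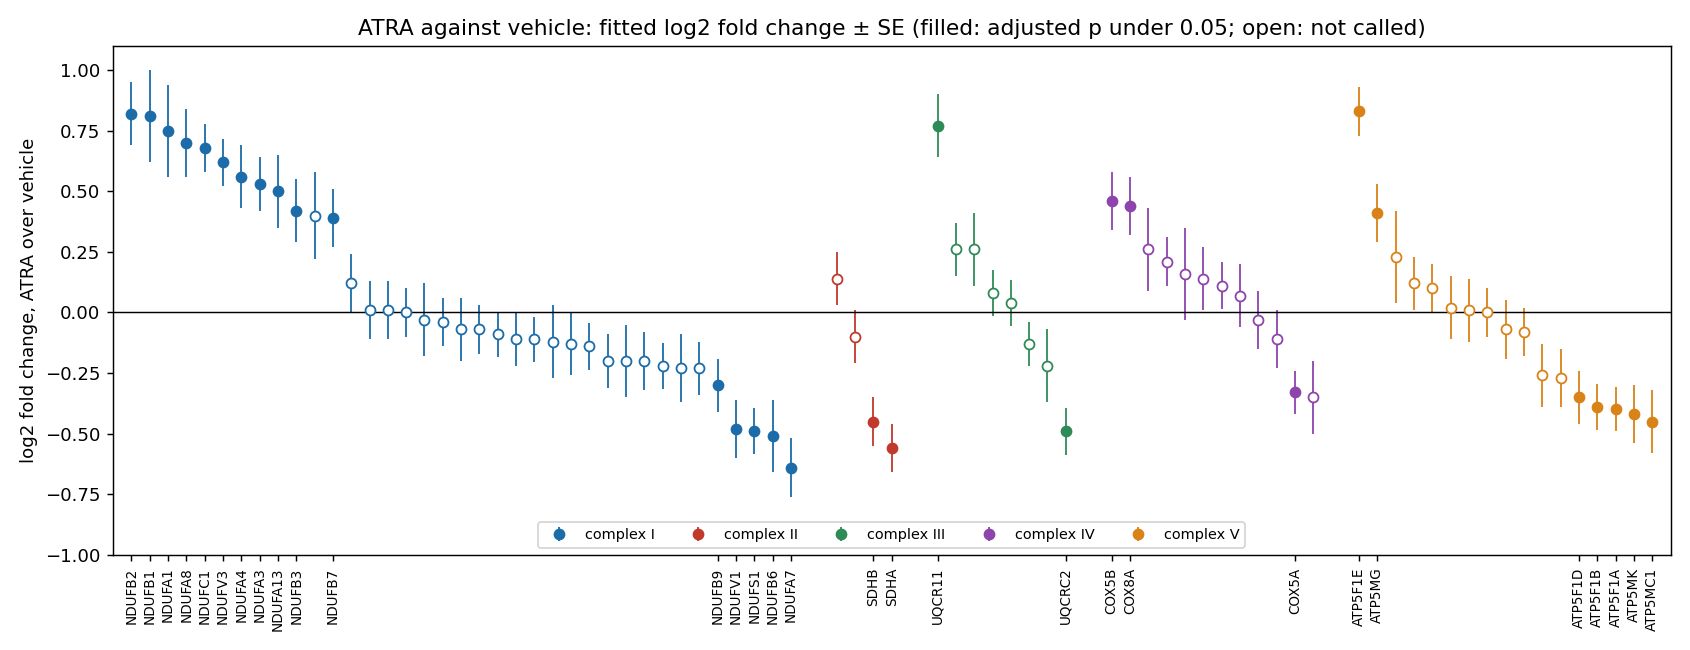
Fitted log2 fold change of ATRA over vehicle for each of the 78 tested members, sorted within complexes I to V, with its standard error as a bar (2 libraries per group). Filled points passed an adjusted p under 0.05 and are named on the axis. Within every complex except II, members lie on both sides of 0 among the filled points, 16 above it and 14 below in all.

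Among the complex I core subunits, which carry the flavin and the iron-sulfur clusters, NDUFS1 and NDUFV1 fell. NDUFS1 (chr2:206114817-206159603, minus strand), the largest core subunit, had 84.8 and 78.9 CPM (the read count scaled to library size) with ATRA, against 116 and 115 CPM with vehicle. The groups did not overlap, and the log2 fold change was -0.49 ± 0.094 (SE; adjusted p = 0.00111). NDUFV1, which binds NADH and the flavin, had 142 and 141 CPM with ATRA, against 192 and 202 CPM with vehicle, a log2 fold change of -0.48 ± 0.12 (adjusted p = 0.00713). Its call was lost without vehicle replicate 2, and its adjusted p reached at most 0.0611 over the 18 alternatives. NDUFS3, NDUFS7, NDUFS8 and NDUFV2 were not called, with log2 fold changes of 0.00, -0.20, -0.23 and -0.13.

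Of the accessory members of complex I by symbol, NDUFA4 included, 11 rose and 3 fell. NDUFB2 (chr7:140690777-140722790, plus strand), a small subunit of the membrane arm, had 73.0 and 86.6 CPM with ATRA, against 44.1 and 46.4 CPM with vehicle (log2 fold change 0.82 ± 0.13, adjusted p = 0.00031). NDUFC1, also in the membrane arm, had 66.7 and 62.0 CPM with ATRA, against 38.6 and 41.8 CPM with vehicle (0.68 ± 0.099, adjusted p = 0.000157). NDUFV3 had 77.5 and 69.8 CPM with ATRA, against 47.5 and 48.0 CPM with vehicle (0.62 ± 0.098, adjusted p = 0.000281). In these 3 genes both ATRA libraries lay above both vehicle libraries, and each call held in all 18 alternatives. NDUFB1, NDUFA1, NDUFA8, NDUFA4, NDUFA3, NDUFA13, NDUFB3 and NDUFB7 also rose, with log2 fold changes between 0.39 and 0.81. Of these, NDUFA8 alone kept its call in all 18 alternatives. NDUFA13, known as GRIM-19 and first described as a gene induced by interferon and retinoic acid, had 208 and 236 CPM with ATRA, against 159 and 156 CPM with vehicle (0.50 ± 0.15, adjusted p = 0.018). NDUFA4, now placed in complex IV rather than complex I, had 148 and 178 CPM with ATRA, against 116 and 106 CPM with vehicle (0.56 ± 0.13, adjusted p = 0.00472). The call of NDUFA4 was lost in 2 of 18 alternatives, limma on FPKM without a filter and the fit without vehicle replicate 2. The accessory genes that fell were NDUFA7, NDUFB6 and NDUFB9. NDUFA7 had 33.9 and 29.5 CPM with ATRA, against 47.4 and 51.5 CPM with vehicle, the deepest fall of any member (-0.64 ± 0.12, adjusted p = 0.000909).

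Complex II, succinate dehydrogenase, is also an enzyme of the tricarboxylic acid cycle. Both catalytic subunits fell and neither membrane anchor was called. SDHA had 127 and 126 CPM with ATRA, against 192 and 182 CPM with vehicle (log2 fold change -0.56 ± 0.1, adjusted p = 0.000948). SDHB had 86.5 and 102 CPM with ATRA, against 130 and 128 CPM with vehicle (-0.45 ± 0.1, adjusted p = 0.00338). The anchors SDHC and SDHD, which bind ubiquinone and heme, had log2 fold changes of 0.14 ± 0.11 and -0.10 ± 0.11. SDHA shares sequence with pseudogene copies, so its count is uncertain, and on the deposited FPKM values its fall was not called (adjusted p at most 0.118 over the alternatives). The call of SDHB held in all 18.

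In complex III, UQCRC2 fell and UQCR11 rose. UQCRC2 (chr16:21952660-21983660, plus strand), a core protein of the matrix arm, had 212 and 234 CPM with ATRA, against 321 and 308 CPM with vehicle (log2 fold change -0.49 ± 0.097, adjusted p = 0.00133). Its partner UQCRC1 had 394 and 387 CPM with ATRA, against 424 and 433 CPM with vehicle, a log2 fold change of -0.13 ± 0.09 that was not called. UQCR11, a small accessory subunit, had 134 and 137 CPM with ATRA, against 74.2 and 85.1 CPM with vehicle (0.77 ± 0.13, adjusted p = 0.000429). The UQCR11 change rests on the counts. On the FPKM values, and with the library's own gene length as an offset, it was 0.23 and was not called (adjusted p at most 0.457). UQCRB, UQCRQ, UQCRFS1, UQCR10 and UQCRH were not called, with log2 fold changes between -0.22 and 0.26.

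In complex IV, COX5B and COX8A rose, COX5A fell, and the other 9 tested genes were not called. COX5A, subunit Va, had 232 and 228 CPM with ATRA, against 284 and 296 CPM with vehicle (log2 fold change -0.33 ± 0.09, adjusted p = 0.0104). COX5B, the zinc-binding subunit Vb, had 212 and 261 CPM with ATRA, against 172 and 171 CPM with vehicle (0.46 ± 0.12, adjusted p = 0.00983). COX8A had 247 and 275 CPM with ATRA, against 179 and 206 CPM with vehicle (0.44 ± 0.12, adjusted p = 0.00871). None of the 3 pairs of groups overlapped, but each call was lost in 3 or 4 of the 18 alternatives. These include leaving out vehicle replicate 1 for all 3 genes, and vehicle replicate 2 for COX5A and COX5B. The adjusted p reached at most 0.102 for COX5A, 0.103 for COX5B and 0.253 for COX8A. COX4I1, COX6A1, COX7A2 and COX7A2L, a factor in supercomplex assembly, had log2 fold changes of 0.11, -0.11, 0.26 and -0.03.

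In complex V, the alpha and beta subunits of the F1 head fell, and in the central stalk the delta subunit fell and the epsilon subunit rose. ATP5F1A, the alpha subunit, had 638 and 664 CPM with ATRA, against 876 and 842 CPM with vehicle (log2 fold change -0.40 ± 0.091, adjusted p = 0.00369). ATP5F1B, the catalytic beta subunit, had 568 and 609 CPM with ATRA, against 801 and 745 CPM with vehicle (-0.39 ± 0.096, adjusted p = 0.00552). ATP5F1E (chr20:59025467-59032382, minus strand), the epsilon subunit of the central stalk, had 172 and 182 CPM with ATRA, against 93.7 and 105 CPM with vehicle (0.83 ± 0.1, adjusted p = 3.6e-05). This was the largest rise among the members, and its groups lay apart in every library. The delta subunit ATP5F1D also fell (-0.35), and the gamma subunit ATP5F1C was not called (-0.27, adjusted p = 0.0807). Outside the F1 head and central stalk, ATP5MC1 of the c ring (-0.45) and ATP5MK, the DAPIT subunit (-0.42), fell, and ATP5MG, the g subunit, rose (0.41). None of the 4 peripheral stalk genes was called by edgeR, nor had any an unadjusted p under 0.05. Without vehicle replicate 1 the calls of ATP5F1A and ATP5F1B were lost (adjusted p at most 0.0524 and 0.0802). The call of ATP5MC1 was lost in 6 of 18 alternatives (adjusted p at most 0.134), among them without vehicle replicate 1 or 2 or ATRA replicate 1, and that of ATP5MG in 3 (at most 0.184), among them without vehicle replicate 1 or ATRA replicate 2.

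**Figure D3:**
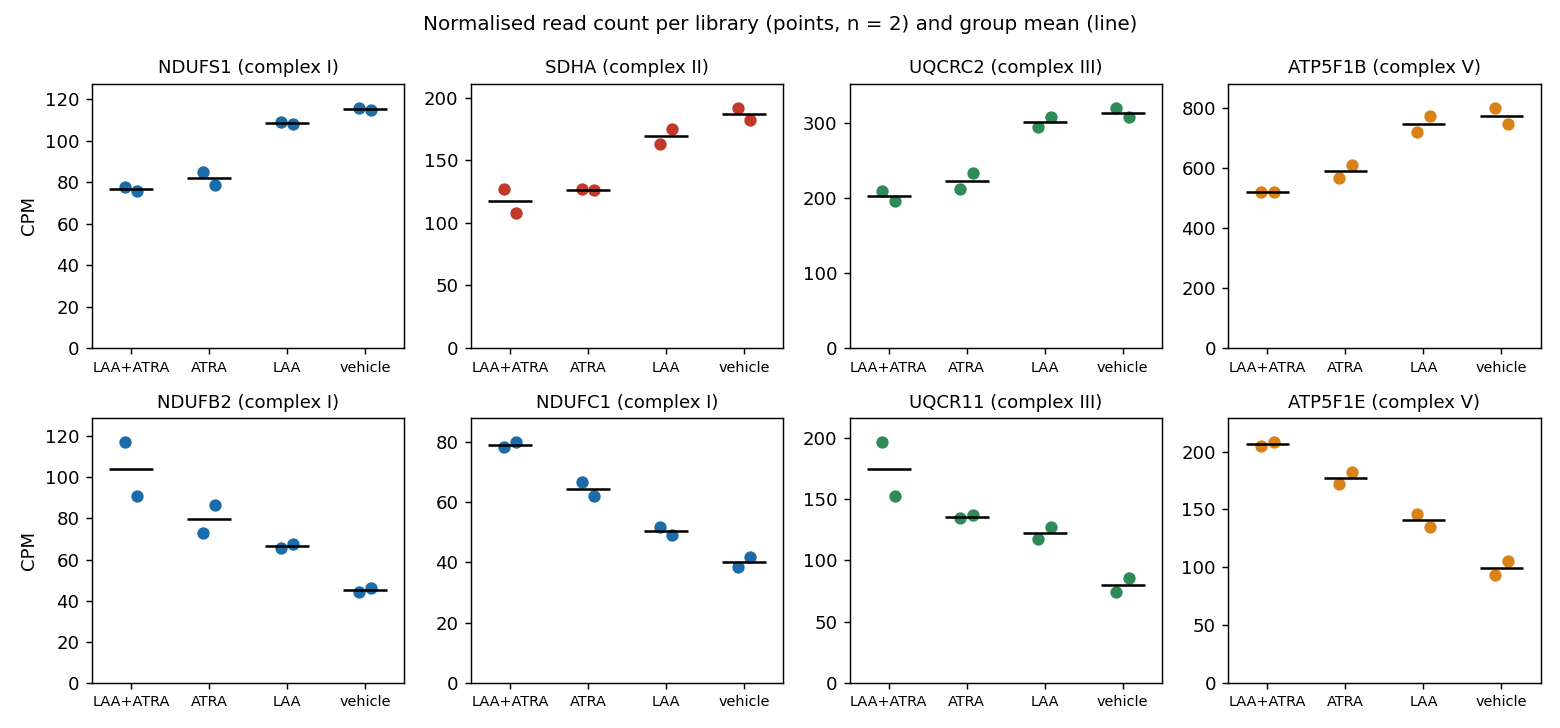
Normalised read count (CPM) of 8 members in each of the 8 libraries, with the group mean as a line and each axis starting at 0. In the upper row, NDUFS1, SDHA, UQCRC2 and ATP5F1B lie lower in the 4 libraries with ATRA, and in the lower row NDUFB2, NDUFC1, UQCR11 and ATP5F1E lie higher in LAA+ATRA and ATRA libraries than in vehicle libraries.

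The counts depended on single libraries. Without vehicle replicate 1, 7 members rose and 8 fell with ATRA, where 14.8% and 13.4% of all genes did. Without vehicle replicate 2 the counts were 11 and 7 (15.1% and 14% of all genes). Without ATRA replicate 1, 23 rose and 11 fell (19.3% and 17.2%), while without ATRA replicate 2, 10 rose and 19 fell (17.9% and 17.5%). With offsets for gene length and GC content, 15 rose and 29 fell, where 24.7% and 23.3% of all genes did. On log2(FPKM + 1) values 10 rose and 10 fell, where 18.6% and 16.8% of all genes did. NDUFA8, NDUFB2, NDUFC1, NDUFV3 and ATP5F1E rose, and NDUFA7, NDUFS1, SDHB and UQCRC2 fell, in the main test and in all 18 alternatives. At least 1 of the promoter motifs was found for 9 of the 15 members called higher that have a promoter entry (60%), for 6 of 11 called lower (54.5%) and for 25 of 39 not called (64.1%).

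ATRA could also be compared in cells that received LAA, and LAA+ATRA against LAA shares no library with ATRA against vehicle. Both come from 1 fit over all 8 libraries with a common estimate of spread, so their calls are not separate tests. There 11 members rose and 13 fell, where 18.4% of all genes were called higher and 18.0% lower. All 16 members that rose with ATRA alone had a positive log2 fold change here, with a median of 0.45, and 11 of them were called, 68.8% of the 16 and 100% of the 11. All 14 that fell had a negative one, with a median of -0.44, and 12 were called, 85.7% of the 14 and 92.3% of the 13. Over all genes called higher with ATRA, 98.8% kept the sign and 73.1% the call, and over those called lower 98.5% and 72.9%. NDUFS1 had 77.6 and 75.9 CPM with LAA+ATRA, against 109 and 108 CPM with LAA (log2 fold change -0.50 ± 0.094, adjusted p = 0.00132). UQCRC2 had 210 and 197 CPM with LAA+ATRA, against 295 and 308 CPM with LAA (-0.57 ± 0.097, adjusted p = 0.00068). NDUFC1 had 78.3 and 79.8 CPM with LAA+ATRA, against 51.6 and 49.0 CPM with LAA (0.65 ± 0.098, adjusted p = 0.000261). No pair of groups overlapped in these 3 genes. Fewer members were called when any library of this comparison was left out, and fewer of all genes were too. With offsets for gene length and GC content, 7 rose and 31 fell, where 21.0% and 20.8% of all genes did, and the median was -0.21.

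Among other genes of the pathway, many fell with ATRA, where 21.0% of all genes did. Of 16 genes of the tricarboxylic acid cycle and pyruvate dehydrogenase, none rose and 10 fell, with a median log2 fold change of -0.31. By edgeR, 12 of these had an unadjusted p under 0.05. The 10 that fell include FH, fumarase, with 86.1 ± 4.12 CPM with ATRA and 141 ± 4.0 CPM with vehicle (SD, n = 2 each; -0.71 ± 0.11, adjusted p = 0.000202), which acts directly after complex II in the cycle. Of 14 genes for the outer membrane, import, mitochondrial chaperones and prohibitins, none rose and 11 fell, with a median of -0.81. They were led by the porins VDAC1 (-1.21) and VDAC2 (-0.92). Of 76 tested mitochondrial ribosomal protein genes, which serve translation of the mitochondrially encoded subunits, 9 rose and 30 fell, with a median of -0.23, with MRPS2 (-1.11) and MRPS27 (-1.15) among those that fell. MRPS6, among those that rose, had 145 ± 19.9 CPM with ATRA and 56.4 ± 1.51 CPM with vehicle (SD, n = 2 each), and MRPL34 also rose (0.64). Among 16 regulators of mitochondrial gene expression 1 rose and 9 fell. The one that rose was ESRRA, an orphan nuclear receptor, with 71.6 ± 4.68 CPM with ATRA and 36.2 ± 1.05 CPM with vehicle (0.98 ± 0.12, adjusted p = 3.04e-05). PPARGC1A, the coactivator PGC-1alpha, fell to 6.42 ± 0.538 CPM with ATRA, against 23.6 ± 3.29 CPM with vehicle (-1.88 ± 0.16, adjusted p = 2.67e-06), and TWNK, the mitochondrial DNA helicase, also fell (-1.13).

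Assembly factors were mixed, where 21.9% of all genes were called higher with ATRA and 21.0% lower. Of 19 for complex I, 1 rose and 8 fell, among them NDUFAF2 (-1.22), and of 23 for complex IV, 6 rose and 7 fell, with SURF1 at 1.03 and LRPPRC, which stabilises mitochondrial mRNAs, at -1.07. For complex II, SDHAF2, which flavinates SDHA, rose (0.74), as did SDHAF1 (0.38), and SDHAF3 fell (-1.11). For complex III, LYRM7 (-1.10) and BCS1L (-0.68), which act on the Rieske protein, fell and none of the 6 rose. Of 16 genes of electron carriers and ubiquinone synthesis, 1 rose and 7 fell, among them COQ3 (-1.12). This list holds CYC1, a complex III subunit outside the member rule. CYC1 had 207 ± 5.05 CPM with ATRA and 281 ± 32.3 CPM with vehicle (SD, n = 2 each). None of 5 assembly factors or inhibitors of ATP synthase was called by edgeR, with 2 at an unadjusted p under 0.05. Of the 13 mitochondrially encoded subunit genes, 3 rose (23.1%), near the share of all genes, and none fell with ATRA, with a median of 0.31.

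With LAA alone, most members lay slightly above vehicle, without passing the test. Of the 78 tested, 70 had a positive log2 fold change against vehicle, with a median of 0.29, where the median over all genes was 0.01. None was called by edgeR in either direction, as 0.0267% of all genes were, while 44 of 78 had an unadjusted p under 0.05, against 18.9% of all genes. In 64 members both LAA libraries lay above both vehicle libraries, against 28.6% of all genes, and in 3 both lay below, against 27.4%. By complex the medians were 0.32 for I, -0.06 for II, 0.28 for III, 0.26 for IV and 0.29 for V. All 30 accessory members of complex I by symbol, NDUFA4 included, had a positive value. With offsets for gene length and GC content the members' median was 0.07.

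ATP5ME, the e subunit of ATP synthase, had 70.4 and 68.6 CPM with LAA, against 41.0 and 47.9 CPM with vehicle (log2 fold change 0.64 ± 0.13, adjusted p = 0.0509). NDUFB9, an accessory subunit of the membrane arm, had 411 and 404 CPM with LAA, against 270 and 280 CPM with vehicle (0.57 ± 0.11, adjusted p = 0.0509). NDUFS5 had 273 and 270 CPM with LAA, against 192 and 200 CPM with vehicle (0.47 ± 0.1, adjusted p = 0.0569). In these genes the groups did not overlap, and the adjusted p missed the threshold. In complex II, SDHA had a log2 fold change of -0.15 and SDHB one of 0.14.

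Whether LAA counts as a change for single members depends on the test. DESeq2 called 26 members higher, where it called 1.53% of 25862 genes higher. edgeR called 24 without the filter on low counts (2.10% of genes) and 44 with only the LAA and vehicle libraries in the fit (8.59%). Limma on FPKM values called none. When a library outside the comparison was left out of the fit, the count was 19 for ATRA replicate 1 (1.81% of all genes higher), 18 for ATRA replicate 2 (1.73%), 13 for the first LAA+ATRA library (1.18%) and 17 for the second (1.53%). It was 0 without either LAA library or either vehicle library, and no member was called lower under any alternative.

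With LAA added to ATRA, most members again lay slightly higher, and 2 passed the test. Against ATRA libraries, 68 of 78 members had a positive log2 fold change with LAA+ATRA, with a median of 0.22, where the median over all genes was 0.00. The pair LAA+ATRA and ATRA shares no library with LAA and vehicle, and of the 70 members with a positive value for LAA alone, 66 (94.3%) had one here, against 68.7% over all genes. Mitochondrial ribosomal protein genes lay higher as well, with 71 of 76 positive and a median of 0.22 here, and 69 of 76 positive and a median of 0.28 for LAA alone. In 43 members both LAA+ATRA libraries lay above both ATRA libraries, against 21.2% of all genes, and in 4 both lay below, against 22.9%. The edgeR test called 2 members higher, where 0.493% of genes were, and 0 lower, where 0.520% were, while DESeq2 also called 0 lower and 37 had an unadjusted p under 0.05, against 18.6% of genes. With length and GC offsets the median was -0.07. NDUFS6, a zinc-binding accessory subunit of complex I, had 91.1 and 68.6 CPM with LAA+ATRA, against 52.9 and 41.7 CPM with ATRA (0.76 ± 0.15, adjusted p = 0.0433). ATP5ME had 82.6 and 64.3 CPM with LAA+ATRA, against 46.3 and 43.6 CPM with ATRA (0.71 ± 0.13, adjusted p = 0.0337). Neither gene's groups overlapped, but NDUFS6 lost its call in 13 of 18 alternatives (adjusted p at most 0.204) and ATP5ME in 12, with a reversed sign in 1 more (at most 0.355). The count was 0 without either vehicle library, either LAA library or LAA+ATRA replicate 1, 6 without LAA+ATRA replicate 2, 14 with DESeq2 (1.21% of genes higher), 10 when genes with low counts were kept (1.82%) and 0 when the fit held the LAA+ATRA and ATRA libraries alone (0.0704%). Of the 13 mitochondrially encoded subunit genes, 6 rose in this comparison and none fell, with a median of 0.65. With LAA alone against vehicle they did not lie higher, as 11 of the 13 had a negative log2 fold change, with a median of -0.12. Their departure from the sum of the single responses was positive in all 13, with a median of 0.81. By edgeR none of these was called, and 12 had an unadjusted p under 0.05, against 4.98% of all genes. The 13 genes share libraries and are not independent. Their summed level was 44829 and 59710 CPM in the LAA+ATRA libraries and 39035 and 34533 CPM in the ATRA libraries. It was 29516 and 26516 CPM with LAA and 32655 and 31285 CPM with vehicle.

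Against vehicle, both compounds together gave 31 members higher and 8 lower, where 23.1% of all genes were called higher and 21.5% lower, and the median was 0.18. The direction turned with offsets for gene length and GC content, with 10 higher and 31 lower, where 23.6% and 22.6% of all genes were called, a median of -0.14, and 17 of the 39 calls shared. Complex I had 17 higher and 3 lower, complex II 0 and 2, complex III 4 and 1, complex IV 4 and 0, and complex V 6 and 2. This comparison shares its vehicle libraries with the comparisons of the single compounds, so the values stand side by side only. NDUFB2 had 117 and 91.0 CPM with LAA+ATRA, against 44.1 and 46.4 CPM with vehicle, a log2 fold change of 1.20 ± 0.13 (adjusted p = 1.79e-05), where ATRA alone gave 0.82 and LAA alone 0.55. UQCR11 had 196 and 152 CPM with LAA+ATRA, against 74.2 and 85.1 CPM with vehicle (1.12 ± 0.13, adjusted p = 2.45e-05), where the single compounds gave 0.77 and 0.62. ATP5F1E had 205 and 208 CPM with LAA+ATRA, against 93.7 and 105 CPM with vehicle (1.06 ± 0.1, adjusted p = 5.9e-06), where they gave 0.83 and 0.50. These 3 rises were seen in every library pair. NDUFS1 had a log2 fold change of -0.59, with -0.49 for ATRA and -0.09 for LAA, and SDHA one of -0.68, with -0.56 and -0.15. Some members that fell with ATRA alone were near vehicle with both compounds, such as ATP5MC1, at 102 and 88.4 CPM with LAA+ATRA, 62.3 and 81.4 CPM with ATRA, 139 and 129 CPM with LAA and 100 and 97.0 CPM with vehicle. Fewer members were called, higher and lower together, when any library of this comparison was left out, and fewer of all genes were too.

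**Figure D4:**
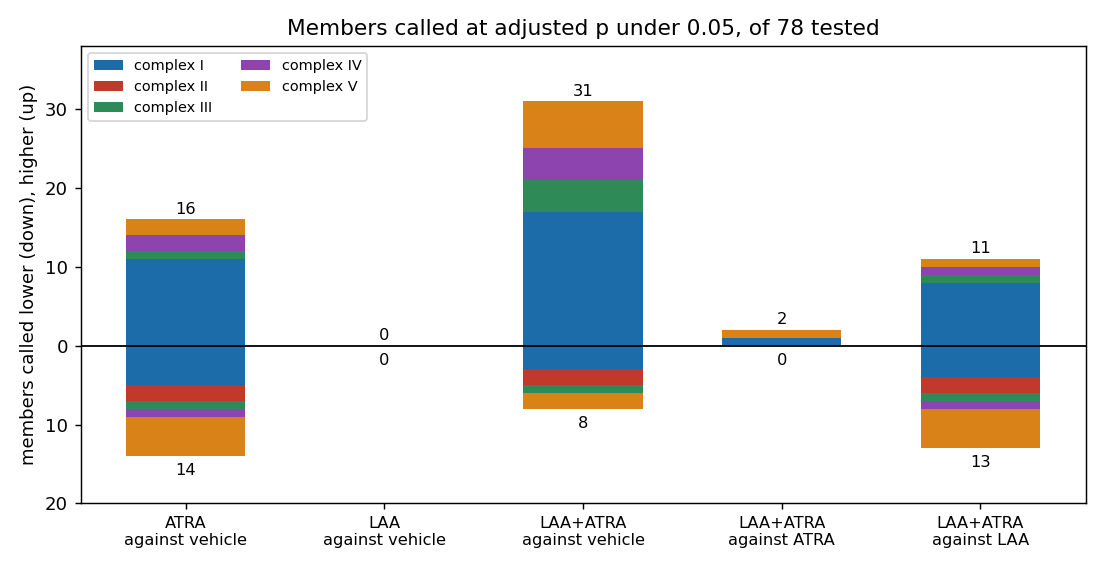
Number of the 78 tested members called at an adjusted p under 0.05 in each comparison, higher above the line and lower below it, coloured by complex. ATRA against vehicle has 16 and 14, LAA against vehicle 0 and 0, LAA+ATRA against vehicle 31 and 8, LAA+ATRA against ATRA 2 and 0, and LAA+ATRA against LAA 11 and 13. With length and GC offsets LAA+ATRA against vehicle had 10 and 31 instead.

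No departure from the sum of the single effects was called. The interaction of LAA and ATRA was called for 0 members in either direction by edgeR, DESeq2 and limma. Of all genes, edgeR called 0.00667%, DESeq2 0.0348% higher and 0.00773% lower, and limma 0.0143% to 0.0271% higher and at most 0.0116% lower. By edgeR, 2 members had an unadjusted p under 0.05, against 4.98% of all genes. The members' median interaction was -0.05 on the log2 scale, between -0.45 for COX5B and 0.25 for NDUFS7, and their standard errors ran from 0.13 to 0.26, so departures as small as these errors were not detectable with 2 libraries per group.

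The members are short genes, and log2 fold changes with LAA ran with gene length. Their median length behind the FPKM was 441 bases, against 1978 bases for other genes tested, and 43 of 78 (55.1%) lay under 500 bases, against 7.07% of other genes. Among the 1055 other genes under 500 bases, the median log2 fold change was 0.31 for LAA against vehicle and 0.28 for LAA+ATRA against ATRA, where the 43 short members had 0.35 and 0.29. With offsets for gene length and GC content in each library, 1 member was called higher for LAA against vehicle (0.0467% of all genes) and 0 for LAA+ATRA against ATRA (0.340%). With ATRA alone, other genes under 500 bases had a median of 0.21 for ATRA against vehicle, where the short members had 0.02, and in members of 1000 to 2000 bases, which include NDUFV1, SDHA, UQCRC2, ATP5F1A and ATP5F1B, 1 rose and 5 fell with a median of -0.17. Of other genes of that length 24.3% rose and 20.2% fell, with a median of 0.02. Members called higher with ATRA had a median length of 342 bases, those called lower one of 807 bases and those not called one of 411 bases. Across the 78 members, Spearman's correlation of log2 fold change with length was -0.24 for ATRA, -0.48 for LAA and -0.54 for LAA+ATRA against ATRA, with no test, since members share libraries and are not independent. With the length and GC offsets it was -0.09, -0.02 and 0.55 in these comparisons, and between -0.02 and 0.01 over all genes, so for LAA+ATRA against ATRA the members' relation to length changed sign.

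**Figure D5:**
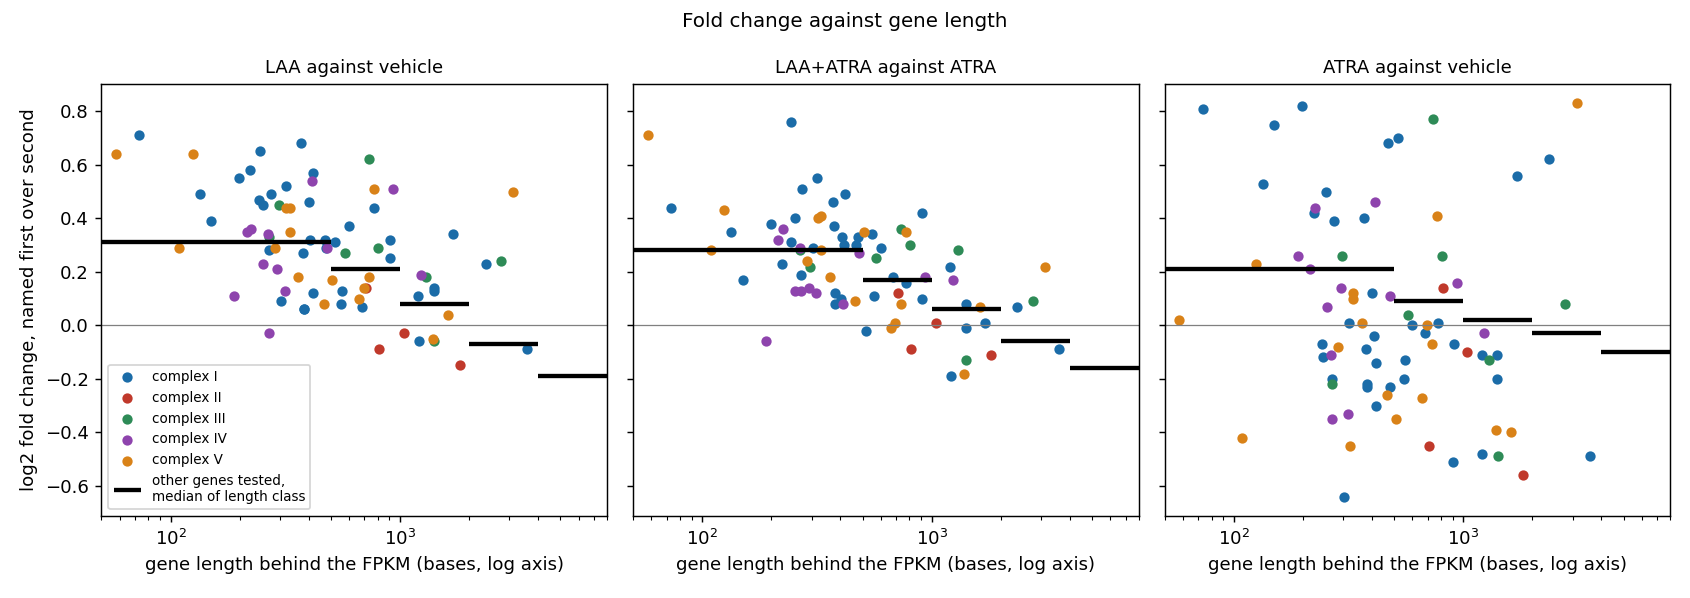
Log2 fold change of each tested member against the gene length behind its FPKM (log axis), for LAA against vehicle, LAA+ATRA against ATRA and ATRA against vehicle, coloured by complex. Black lines give the median of the other genes tested in each length class, drawn across the class, with the lowest class shown from 50 bases and the highest from 4000 bases up. With LAA the members lie around the black lines, and with ATRA alone they spread on both sides of them.

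The libraries of a group also differed in the members' level. Relative to the mean of all libraries, the members' median log2 level was 0.14 and 0.04 in LAA+ATRA libraries, -0.22 and 0.01 in ATRA libraries, 0.17 and 0.13 in LAA libraries, and -0.15 and -0.08 in vehicle libraries. ATRA replicate 1 was the lowest of the 8, and its distance from ATRA replicate 2 was the widest within a group. Reads of NDUFC2, ATP5MF and UQCRH overlap or closely match other genes or copies, so their counts are uncertain.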

How the data were processed

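RNA was measured in 8 libraries of U-937 cells, 2 per group. Per the submitters' processing notes the tools were Salmon 1.8.0 and DESeq2 1.36.0, on GRCh38. The authors deposited estimated counts per Ensembl gene, and FPKM values for the same genes, whose ratio to the counts implies a gene length that differs between libraries. The annotation release and the strand setting are not stated in those sources. For the tests the estimated counts were made whole by rounding, and 51.9% of values above 0 changed. Genes were filtered with filterByExpr in edgeR 4.0.16 (R 4.3.3), leaving 14995, scaled by TMM, and fitted with 4 group means (4 residual degrees of freedom). P-values come from the two-sided quasi-likelihood F test with Benjamini-Hochberg adjustment over all genes, with a call at an adjusted p under 0.05. CPM is the read count scaled by library size and TMM factor, and the spread and errors cover 2 libraries per group. Gene positions are from GENCODE on GRCh38.

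Alternatives used DESeq2 1.42.0, limma 3.58.1 on log2(FPKM + 1) or log2(FPKM + 0.1), RLE size factors, a fit with no filter on low counts, a replicate block, only the libraries compared, offsets for length and GC content, and leaving out each library in turn. An offset for the library-specific gene length was added after seeing the data. The code was tested on simulated data. Members, gene lists and roles were chosen with earlier results of these data known. The rule for named genes takes up to 3 called members per complex, comparison and direction by adjusted p, the 2 most abundant where none is called, a set of subunits and isoforms always named, and up to 2 called genes per direction from each other list. Further members were picked after their values were seen. The labels do not say whether the replicates were grown as separate cultures, and p-values here cover the spread between these libraries alone, which may be technical.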

Additional observations from a re-analysis of the deposited data

How the results depend on the processing

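Of 80 results for named genes, 57 were called, and 24 of these kept the call under all 18 alternatives. For called results the sign reversed in 10 combinations of a result and an alternative, all for LAA+ATRA, and for 12 results that were not called it changed in 14, in ATRA and LAA comparisons too. With length and GC offsets, LAA+ATRA against vehicle gave -0.06 for NDUFA3, -0.10 for UQCRQ, -0.23 for COX6B1, -0.00 for COX8A and -0.54 for ATP5ME, and LAA+ATRA against ATRA gave -0.31 for ATP5ME. UQCRQ against vehicle was -0.08 with limma at either pseudocount, limma without a filter and the added library-specific length offset. The offsets are fitted over all genes and did not remove the members' own relation to length for LAA+ATRA against ATRA, where Spearman's correlation was 0.55 with them and -0.54 without. The cause of the changes was not tested.

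With those offsets the members called were 29 lower for ATRA, 1 higher for LAA, 10 higher and 31 lower for LAA+ATRA against vehicle, 0 higher against ATRA, and 7 higher and 31 lower against LAA, with medians of 0.07 for LAA and, for LAA+ATRA, -0.14 against vehicle, -0.07 against ATRA and -0.21 against LAA. Of all genes, 23.3% were lower for ATRA and 0.0467% higher for LAA. For LAA+ATRA, 23.6% were higher and 22.6% lower against vehicle, 0.340% higher against ATRA, and 21.0% and 20.8% against LAA. Limma on log2(FPKM + 1) and log2(FPKM + 0.1) gave 10 higher for ATRA, 0 for LAA+ATRA against ATRA and 5 against LAA. Of all genes they called 18.6% higher for ATRA, 0.0358% and 0.0286% against ATRA, and 16.0% and 15.8% against LAA. Limma without a filter gave 6 higher and 8 lower for ATRA, 14 and 5 for LAA+ATRA against vehicle, 0 higher against ATRA, and 3 and 6 against LAA. Its shares of all genes in that order were 8.63% and 7.47%, 9.06% and 7.70%, 0.0619%, and 6.89% and 6.07%. DESeq2 gave 26 higher for LAA (1.53% of all genes) and 14 for LAA+ATRA against ATRA (1.21%). No low-count filter gave 24 (2.10%) and 10 (1.82%), and only the libraries compared 44 (8.59%) and 0 (0.0704%). The library-specific length offset gave 0 higher for LAA+ATRA against ATRA (0.0667% of all genes) and 6 against LAA (15.6%).

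Replicate numbers carry no stated meaning, and same-numbered libraries did not deviate together (correlations from -0.07 to 0.074), so replicates were not paired. With the replicate block, LAA+ATRA against ATRA had 0 members called higher in place of 2, where 0.107% of all genes were.

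Leaving out 1 library gave 7 to 23 higher, 7 to 19 lower and a median of -0.12 to 0.10 for ATRA, and 0 to 19 higher for LAA with a median of 0.23 to 0.31. LAA+ATRA had 22 to 34 higher, 4 to 9 lower and a median of 0.13 to 0.26 against vehicle, 0 to 6 higher and a median of 0.15 to 0.33 against ATRA, and 4 to 13 higher, 5 to 16 lower and a median of -0.12 to -0.03 against LAA. The interaction median ran from -0.15 to 0.06. Of the 84 members, 6 had too few counts to be tested, 4 of them none at all, and 2 libraries per group limit the precision of the rest.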
